A study of Mus musculus with 42 samples.

Results

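The flow-through (Ft) RNA of mouse NIH3T3 cells under arsenic stress was compared with that of non-treated cells. Ft is the RNA left after the RNA that had taken up 4-thiouridine (4sU) was captured, so it is made up mainly of transcripts that were present before labeling began. The Ft libraries were chosen by their labels alone, and 3 of the 42 libraries of the series are NT or AS Ft. NIH3T3 is an immortalized mouse embryonic fibroblast line, listed in the labels with the strain C57BL/6, and all libraries come from this 1 line. The AS cells received 250 µM sodium arsenite for 1 h and were harvested at 0 h of recovery. The NT cells received none, and NT replicate 1 was harvested at the time of the AS cells and NT replicate 2 at the time of 4 h of recovery. All 3 samples were cultured with 50 µM 4sU for 1 h before harvest. A fit of all 8 Ft and 4sU libraries, used as an alternative and to compare the fractions, also holds cells at 4 h of recovery after the same arsenite. AS had 1 Ft library, so its spread was taken to be that of NT, and the main gene-level test in Ft takes its spread from the 2 NT libraries and from the trend over all genes.

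Sodium arsenite reacts with thiols, damages proteins and triggers the heat shock response, the oxidative and metal stress responses, and phosphorylation of eIF2α, which shuts down most translation and gathers messages into stress granules. When labeling is as long as the stress, a message made during the stress should be caught in the 4sU fraction, and what stays in Ft reflects chiefly how the older pool was kept or degraded. Capture is never complete, so messages with very strong transcription can also reach Ft. The 3′READS method sequences the 3′ end of each transcript at its cleavage and polyadenylation site (PAS). A count at a PAS therefore measures the isoform that ends there. Many genes use a proximal PAS (pPAS), giving a short 3′UTR, and a distal PAS (dPAS), giving a long one. The stretch between them is the alternative 3′UTR (aUTR).

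The Ft libraries held 2935698 (NT replicate 1), 3316741 (NT replicate 2) and 2642178 (AS) PAS reads, of which 84.2 to 84.9% lay in 3′UTRs of protein-coding genes. Positions with fewer than 5 reads are not listed, so a gene without a listed read may still have had a few. The relation of Ft to 4sU differed between gene groups of known turnover. The median log2(Ft/4sU) of 29 immediate early genes, whose messages are short-lived, was -1.68, -1.50 and -1.71 in NT replicate 1, NT replicate 2 and AS, and that of 63 cytosolic ribosomal protein genes, whose messages are long-lived, was 0.95, 1.13 and 0.99. All 12 fibroblast markers had reads, with summed levels of 22927, 23267 and 21739 RPM (PAS reads of the gene normalized to the library's PAS reads). Of the myogenic markers 11 of 12, and of the immune and epithelial markers 10 of 11, had none. These counts include a name in each list that the annotation does not hold, as 11 of 12 and 10 of 11 were annotated. No spike-in was used, so each value is a share of the library, and fewer cells cannot be told apart from less RNA per cell.

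A small part of the genes differed between AS and NT in Ft. Of 8843 genes with at least 30 reads over the 3 libraries, 125 (1.41%) were higher and 156 (1.76%) were lower in AS Ft (edgeR quasi-likelihood test, Benjamini-Hochberg adjusted p under 0.05). DESeq2 called 46 and 18, which were all among them, and a fit to all 8 Ft and 4sU libraries kept 45 and 27 of them. Without NT replicate 1 that fit called 32 higher and 10 lower, and without NT replicate 2 it called 24 and 3. In each called gene the AS value lay outside both NT values, which selection by a test on the same libraries makes likely. Among genes at 10 RPM or more, 5.03% differed by at least 1 on the log2 scale between AS and NT replicate 1, 4.34% between AS and NT replicate 2, and 1.3% between the NT libraries. The median log2 fold change was 1.31 for the higher and -1.27 for the lower genes, against 0.00 and 0.01 between NT replicate 2 and 1 in the same genes. No read was listed in AS for 29 of the lower genes. Over the other 127 the median was -1.10.

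The largest rises were seen in genes of several kinds, among them chaperones, transcription factors and enzymes. Hspa1b, which encodes the stress-inducible HSP70, was at 27.3 and 36.8 RPM in the NT libraries and at 827 RPM in AS. This is a 26.2-fold rise (log2 4.71 ± 0.21, SE, adjusted p = 3.41e-17, edgeR). Fos, a subunit of the AP-1 transcription factor, stood at 17.0 and 17.5 RPM in NT and at 438 RPM in AS (log2 4.69 ± 0.22). The NT values nearly coincided and AS stood far above them. Dnajb1, an HSP70 co-chaperone, went from 55.5 and 44.6 RPM to 634 RPM (log2 3.69 ± 0.20). Ier2, an immediate early gene, went from 167 and 188 RPM to 1619 RPM, the highest AS level of the 15 rising genes named by size. Hmox1, the heme oxygenase induced by NRF2, went from 19.4 and 23.8 RPM to 267 RPM. Atf3, a transcription factor of the integrated stress response, was at 6.13 and 3.02 RPM in NT and 116 RPM in AS. Hsph1, an HSP110 chaperone, and Egr1, a zinc finger transcription factor, had the largest fitted changes (log2 5.80 ± 0.55 and 5.56 ± 0.54), and each was unlisted in 1 NT library and at 2.04 or 2.11 RPM in the other. Their AS levels were 54.9 and 53.4 RPM. Tmem38b, a cation channel of the endoplasmic reticulum, rose from 3.41 and 4.82 RPM to 65.5 RPM. The minimum of 30 reads counts all 3 libraries, so a gene can meet it through 1 group. Hsph1 (6 and 0 NT reads), Egr1 (0 and 7), Atf3 (18 and 10) and Tmem38b (10 and 16) met it only through AS.

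**Figure D1:**
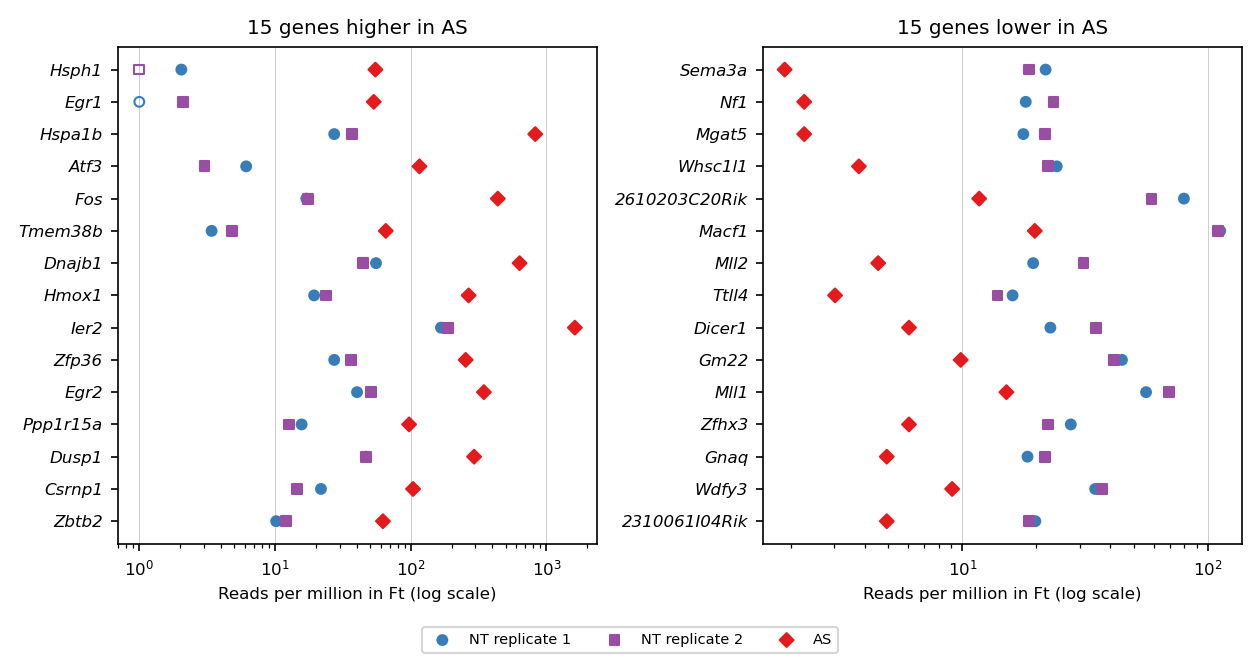
Level of each gene in RPM (log axis) in the 3 Ft libraries for the 15 largest rises (left) and falls (right) in AS among called genes at a mean of 10 RPM or more whose AS value was farther from both NT values than these from each other, one symbol per library. Open symbols, drawn at 1, are libraries in which the gene was not listed. By this choice the AS value lies outside both NT values, at levels from 1619 RPM for Ier2 down to 1.89 RPM for Sema3a.

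Grouped by pathway, immediate early genes moved most. These genes are switched on within minutes by growth factors or stress, and their messages are normally degraded quickly. Of 29 tested, 18 (62.1%, against 1.41% of all genes) rose and none fell, with a median log2 fold change of 1.56, against -0.01 over all genes and 0.04 between the NT libraries. Some that rose, such as Egr1, Atf3 and Fosb, met the read minimum only through AS. Egr2 rose from 40.2 and 51 RPM to 346 RPM. Dusp1, a phosphatase that turns off MAP kinases, rose from 46.7 RPM in both NT libraries to 293 RPM. Junb rose from 30.3 and 31.4 RPM to 132 RPM and Klf6 from 38.8 and 34.1 RPM to 168 RPM. Myc, at 39.5, 58.2 and 76.8 RPM, did not pass the test. Zfp36, an AU-rich element binding protein that speeds deadenylation, rose from 27.3 and 36.5 RPM to 254 RPM (log2 3.02 ± 0.21).

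Of 18 heat shock chaperones tested, 4 (22.2%, against 1.41% of all genes) rose, Hsph1, Hspa1b, Dnajb1 and Dnajb4, and none fell, with a median of 0.43. Hsph1 met the read minimum only through AS. The other 14 did not pass. Hsp90aa1, an HSP90 isoform gene, was at 27.6 and 24.7 RPM in NT and at 37.5 RPM in AS (log2 0.55 ± 0.30, adjusted p = 0.491, edgeR), while its change in 4sU was 2.40. In 4sU 10 of the 18 (55.6%, against 3.28% of all genes) rose.

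Of 20 NRF2 and metal response genes, 4 (20%, against 1.41% of all genes) rose. Besides Hmox1 these were the zinc exporter Slc30a1 (37.1, 28.3 and 104 RPM) and the metallothioneins Mt1 (1491, 1656 and 2873 RPM) and Mt2 (2567, 2239 and 3873 RPM), small metal-binding proteins. Gclm, a subunit of the rate-limiting enzyme of glutathione synthesis, was at 241, 211 and 250 RPM and did not pass in Ft. In 4sU its change was 0.94.

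Of 19 integrated stress response genes, 4 (21.1%, against 1.41% of all genes) rose. Ppp1r15a, which directs dephosphorylation of eIF2α, rose from 15.7 and 12.7 RPM to 97.3 RPM. Ddit3, the CHOP transcription factor, rose from 124 and 120 RPM to 517 RPM, and Chac1, which degrades glutathione, from 27.3 and 27.4 RPM to 84.8 RPM. Atf4 itself rose from 786 and 834 RPM to 1410 RPM (log2 0.83 ± 0.18, adjusted p = 0.00766, edgeR). The list's median of 0.14 was not far from that of all genes.

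Of 12 p53 response genes, 6 (50%, against 1.41% of all genes) rose and 1 (8.33%, against 1.76%) fell. The gene of the cell cycle inhibitor p21, Cdkn1a, went from 271 and 242 RPM to 407 RPM, and Btg2, a partner of the CCR4-NOT deadenylase, from 57.2 and 52.2 RPM to 208 RPM. Gadd45a rose from 11.2 and 13.9 RPM to 46.6 RPM and Plk2 from 99.8 and 117 RPM to 272 RPM. Gadd45b (198, 223 and 477 RPM) and Mdm2, which encodes the ubiquitin ligase of p53 (54.8, 65.1 and 109 RPM), were the other two that rose. The member that fell was Zmat3, an RNA-binding protein gene, from 139 and 152 RPM to 72.7 RPM. Of 18 cytokine and growth factor genes, 2 (11.1%, against 1.41% of all genes) rose. These were the EGF family ligand Hbegf (28.6, 26.8 and 61.3 RPM) and Ptgs2, the inducible cyclooxygenase (199, 252 and 450 RPM). Ccl2, a chemokine, was at 187, 218 and 206 RPM.

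**Figure D2:**
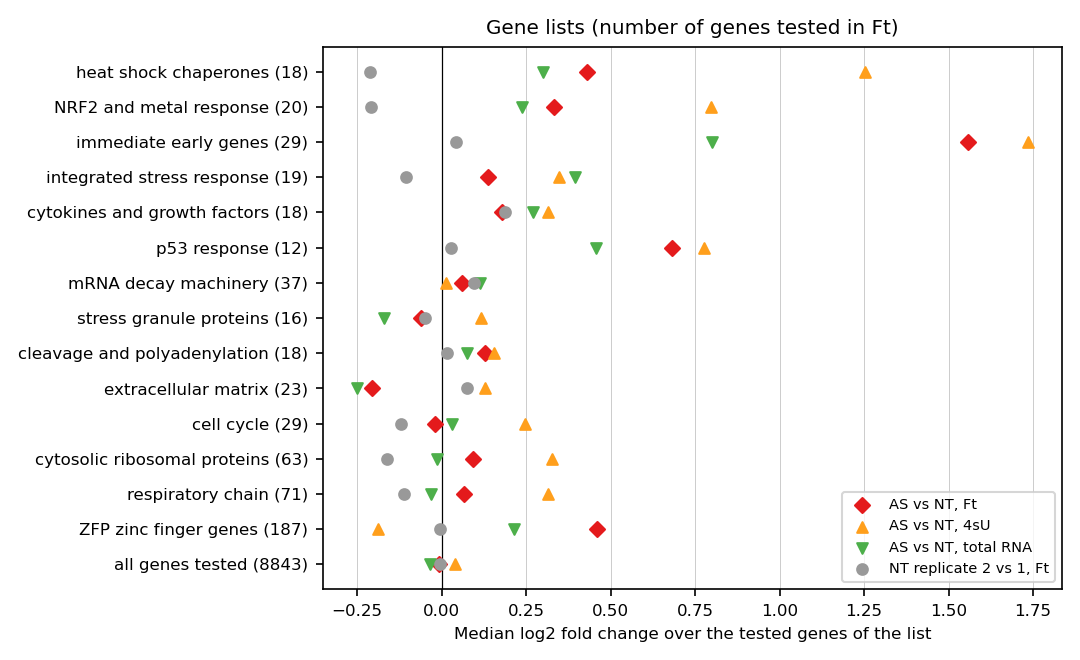
Median log2 fold change over the tested genes of each list, for AS against NT in Ft, 4sU and total RNA, and for NT replicate 2 against 1 in Ft as the noise scale. Immediate early genes (1.56) lie farthest from 0 in Ft, and ZFP zinc finger genes lie above 0 in Ft (0.46) and below 0 in 4sU (-0.19).

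Of 71 genes on the lists of mRNA decay, stress granule, and cleavage and polyadenylation factors, 4 (5.63%) were called in either direction, against 281 of 8843 (3.18%) over all genes. Of 37 mRNA decay genes, 2 rose, Zfp36 and Btg2, which are also on the lists above, and none fell. Elavl1, which encodes the stabilizing protein HuR, was at 725, 879 and 1025 RPM. None of 16 stress granule protein genes passed in either direction, and G3bp1, a scaffold of these granules, was at 231, 228 and 200 RPM. Of 18 cleavage and polyadenylation genes, Cpsf2 (89.6, 91.1 and 49.6 RPM) and Cstf2t (560, 698 and 211 RPM) fell. The level of Cstf2t differed widely among the NT total RNA libraries, at 401, 73.6 and 11429 RPM. Of 63 ribosomal protein genes only Rps2 was called, at 9.54 and 10.3 RPM in NT and unlisted in AS, and such members have near-identical pseudogenes that can take their reads. None of 71 respiratory chain genes was called. None of 23 extracellular matrix genes was called either, while 15 of them (65.2%) were below both NT values, against 38% of all genes, and 1 was above both, with a median of -0.21. Of the 10 fibroblast markers tested, some of which are also matrix genes, 8 were below both NT values and none above, with a median of -0.27. Col1a1, at 1029, 1312 and 726 RPM, had an adjusted p of 0.0678 by edgeR. Of 29 cell cycle genes only Top2a, the mitotic topoisomerase, fell (400, 366 and 224 RPM).

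ZFP zinc finger genes, a large family that is mostly made up of DNA-binding repressors of low abundance, lay mostly above NT in Ft. Their list was defined by name and also holds Zfp36, which is an RNA-binding protein. Of 187 tested, 11 (5.88%, against 1.41% of all genes) rose and 2 (1.07%, against 1.76%) fell. Above both NT values lay 110 (58.8%, against 33.4% of all genes) and below both 37 (19.8%, against 38%). Their median log2 fold change was 0.46, against -0.01 over all genes and -0.01 between the NT libraries. In 4sU these genes had a median of -0.19, with 4 (2.14%, against 3.28% of all genes) called higher and 9 (4.81%, against 2.18%) called lower. The median level was 11.9 and 12.1 RPM in NT and 15.9 RPM in AS, and the summed level was 4009, 4096 and 5088 RPM. Zfp668 went from 7.15 and 2.71 RPM to 21.2 RPM and Zfp563 from 3.07 and 3.62 RPM to 15.5 RPM. Zfp563 met the read minimum only through AS. The 2 that fell were Zfp664 (35.1, 42.2 and 15.1 RPM) and Zfp182 (3.75 and 7.24 RPM in NT and unlisted in AS). Among the 102 of these genes below 15 RPM, 77.5% had a log2 fold change above 0, compared with 48.9% of the other genes at that level. Among the 41 from 15 to 30 RPM, 61% did, compared with 47.6% of the others, and their median was 0.13. Among the 32 from 30 to 60 RPM, 84.4% did, compared with 46.4% of the others, and among the 12 above 60 RPM 58.3% did, compared with 50.3%.

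Many of the genes that fell have very long transcripts. Macf1, which encodes a giant cytoskeletal linker and whose longest annotated transcript has 23407 nt, stood at 112 and 110 RPM in NT and at 19.7 RPM in AS. It was 5.53-fold lower (log2 -2.47 ± 0.27, adjusted p = 1.01e-07, edgeR). Nf1, the neurofibromin gene, went from 18.1 and 23.5 RPM to 2.27 RPM. The histone methyltransferase genes Mll1 (55.9, 69.3 and 15.1 RPM) and Mll2 (19.4, 31.1 and 4.54 RPM) fell as well. Dicer1, which encodes the microRNA-processing enzyme, was at 22.8 and 35.0 RPM in NT and 6.06 RPM in AS. The secreted guidance cue gene Sema3a had the largest fall of the genes in the plot of levels, from 21.8 and 18.7 RPM to 1.89 RPM (log2 -3.36 ± 0.62). It had only 5 reads in AS. Mgat5, Whsc1l1, Zfhx3, Wdfy3, Gnaq, Ttll4, Gm22, 2610203C20Rik and 2310061I04Rik were the other genes in that plot, with log2 values from -3.07 to -1.93. Genes that were unlisted in AS, such as Rps2 and Zfp182, had larger fitted falls, which depend on the prior count.

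The lower genes had longer transcripts than the higher genes, a feature looked at after the gene names had been seen. The median length of the longest annotated transcript was 6640 nt for the lower genes, 2509 nt for the higher genes and 3034 nt for all genes tested. When all genes were divided into 5 equal bins (quintiles) by this length, 104 of the 156 lower genes and 5 of the 125 higher genes fell in the longest quintile (from 4908 nt). In that quintile, 5.88% of genes were called lower, compared with 0.396% in the shortest quintile. The median log2 fold change was 0.08 in the shortest quintile and -0.29 in the longest, a difference of -0.38. Between NT replicate 2 and 1, the difference was 0.10, with a sign that depends on the order of these libraries. Among genes at 100 RPM or more the difference in AS was -0.27. In 4sU the longest quintile also lay below the shortest, by 0.41. In total RNA the longest quintile had medians of -0.13, 0.05 and -0.35 in the pairs numbered 1, 2 and 4, against -0.01, -0.03 and 0.06 in the shortest quintile, so that pair 2 did not show it.

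The distance between long and short genes was larger among genes with rapid turnover, which was described and not tested. Turnover was ranked by log2(4sU/total) in NT cells, which uses no Ft library. Unlike the study's Ft/4sU ratio, it was not adjusted for the number of uridines in a transcript. The rank may therefore be related to transcript length. Ranked so, the fastest quintile did not differ from the slowest in median (-0.02 and 0.02, a difference of -0.04, against 0.17 between the NT libraries). What differed was the number of calls. In the fastest quintile 61 genes (3.47%) were higher and 77 (4.38%) lower of 1760, against 1.41% and 1.76% of all genes. In the slowest 5 (0.284%) were higher and 4 (0.227%) lower of 1760. Genes of the fastest quintile were less abundant, with a median of 20.8 RPM compared with 44.3 RPM. Within the fastest quintile, the 352 shortest genes had a median of 0.26 and the 352 longest a median of -0.50. Of these longest genes 43 (12.2%, against 1.76% of all genes) were called lower and none higher. Below both NT values lay 241 of these 352, against 38% of all genes. The median of these 352 between NT replicate 2 and 1 was 0.10. Of the 352 shortest genes with rapid turnover 30 were called higher and 6 lower. Within the slowest quintile, the longest genes lay below the shortest by only 0.13. The difference grew from quintile to quintile, through -0.26, -0.36 and -0.47 to -0.76.

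**Figure D3:**
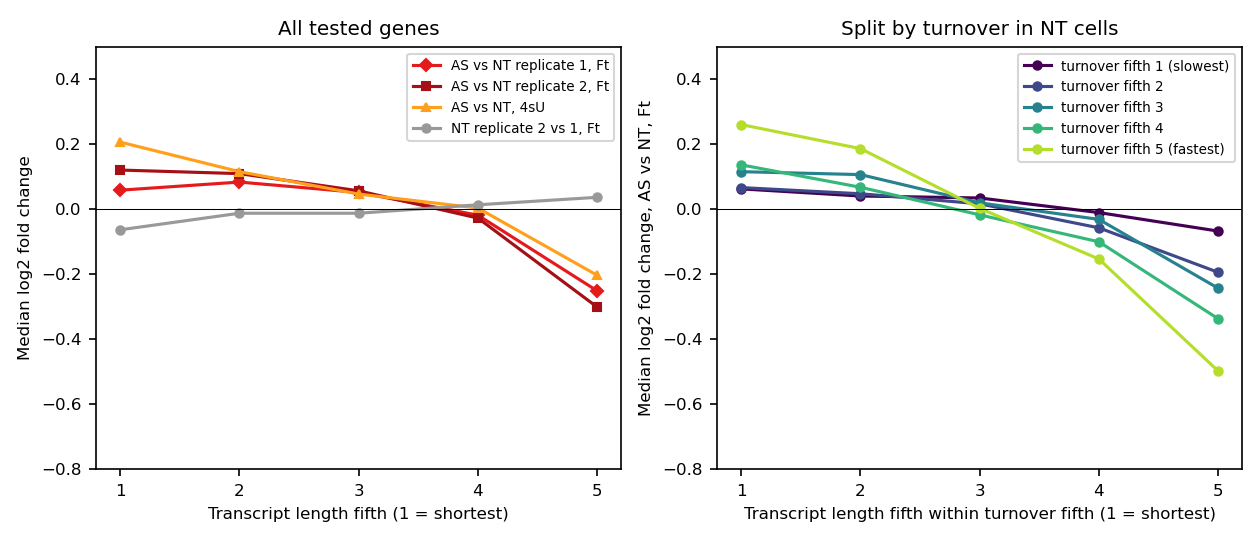
Median log2 fold change by quintiles of transcript length, for all tested genes in each comparison (left) and for AS against NT in Ft within quintiles of turnover (right). The AS lines fall toward the longest quintile by more than the line between the NT libraries moves. The sign of that NT line depends on the order of the libraries. The fastest turnover quintile runs from 0.26 to -0.50.

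The 3′UTRs of the higher genes were rich in an AU-rich element. TATTTAT, the core of the element that ZFP36 and related proteins bind, was searched on the sense strand from the stop codon to the most used PAS in NT Ft. It occurred 0.837 times per kb in the 120 higher genes with a 3′UTR of at least 50 nt, 0.287 times in the 150 lower genes and 0.307 times in all 8277 genes. At least 1 copy was found in 40.8% of the higher genes, 44% of the lower genes and 24.2% of all, but the 3′UTRs of the lower genes were longer (median 1819 nt compared with 668 nt and 723 nt).

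The called genes were then looked up in the 4sU libraries, which are the labeled RNA of the same samples. They were also looked up in total RNA of cells listed without 4sU. Of the 125 genes higher in Ft, 114 were also above NT in 4sU, 67 past the test, and none was called in the other direction. In 4sU 3.28% of all genes were called higher and 2.18% lower. The median rise of these genes was 1.31 in Ft and 1.04 in 4sU. Fos was at 63.2 and 68.7 RPM in NT and 2321 RPM in AS in 4sU, and Hspa1b at 48.1, 53.8 and 3257 RPM. How much of the rise in Ft was labeled RNA that escaped capture was not tested. Of the 155 lower genes that could be tested in 4sU, 137 were below NT there, 33 past the test, with a median of -0.66. Over all genes, 4080 of 8715 were below NT in 4sU. Macf1 was at 134, 168 and 80.6 RPM in 4sU (log2 -0.67 ± 0.23). The log2 change in Ft minus that in 4sU was -1.82 ± 0.35 for Macf1 and -1.53 ± 0.35 for Hspa1b, but neither difference passed the test (adjusted p = 0.281 for both, edgeR). None of 9184 genes passed it by edgeR, 947 had an unadjusted p under 0.05, and DESeq2, which gave an adjusted p for 816 genes, called 14. A difference was therefore not shown for any gene by edgeR, and with 1 AS library per fraction equality was not shown either. Neither fit held a term for the sample, although the Ft and 4sU libraries of a sample are paired.

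In total RNA, no gene passed edgeR's test over 3 NT and 3 AS libraries (19 higher and 1 lower at an unadjusted p under 0.05, and none by DESeq2). With the replicate number as a block, 11 of 8916 genes (0.123%) were higher and none lower. At an unadjusted p under 0.05, edgeR's test with the block had 354 higher and 233 lower. All 11, which include Chac1, Csrnp1, Ddit3, Gadd45b, Gadd45g, Hmox1, Hsph1, Mt1, Mt2 and Zfp36, were among the 125 genes higher in Ft. Of the 125, 87 (69.6%) were higher in AS in all 3 pairs of total RNA, against 13% of all 8843 genes, and of the 156 lower genes 74 (47.4%) were lower in all 3, against 14%. Macf1 was at 129, 72.2 and 79.7 RPM in the NT and at 77.9, 53.8 and 7.64 RPM in the AS total RNA libraries. AS was lower in each pair, and by far the most in the last.

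The balance of isoforms lay toward short 3′UTRs in AS. The relative expression difference (RED) is log2(dPAS/pPAS) in AS minus that in NT, and values below 0 mean a smaller share of the long isoform. In 3045 genes with more than 5 reads of both isoforms in each Ft library, the median RED was -0.19, and 63.84% of genes were below 0. Against NT replicate 1 alone the median was -0.18 and against NT replicate 2 alone -0.22. NT replicate 2 against 1 gave 0.06, with 45.78% below 0. The median log2 change was -0.12 for the long isoform and 0.05 for the short isoform. Between the NT libraries the values were 0.08 and 0.02. These changes are in RPM, without TMM normalization. Over all genes the median log2 fold change in AS was -0.04 by library totals and -0.01 with TMM. Which isoform carried more of the change was therefore not settled.

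A gene was called shortened or lengthened when Fisher's exact test (two-sided) had p under 0.05 and the dPAS share moved by more than 5 percentage points the same way against each NT library. By this rule 183 genes (6.01%) were shortened and 43 (1.41%) lengthened. Both comparisons share the AS library and Fisher's test covers counting error only, so the comparison of the NT libraries with each other gives a noise scale. There, 193 genes (6.34%) passed as shortened and 255 (8.37%) as lengthened, while 364 and 139 passed for AS against NT replicate 1 and 434 and 109 for AS against NT replicate 2. The order of the NT libraries is arbitrary, so only the size of their imbalance is a scale. Shortening exceeded lengthening in both AS comparisons, and by more than the 2 directions differed between the NT libraries. With adjusted p values in each comparison 72 were shortened and 14 lengthened. By edgeR's test of isoform by treatment over the 3 libraries only Arid5b, Zmat3 and Setd1b passed, all shortened (193 shortened and 41 lengthened at an unadjusted p under 0.05).

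Shortening was called most often in genes with long aUTRs. In quintiles of aUTR length, the median RED was -0.07, -0.09, -0.09, -0.24 and -0.51 from the shortest (25 to 125 nt) to the longest (1660 to 8839 nt). The median change of the dPAS isoform went from 0.01 to -0.39 over these quintiles, and that of the pPAS isoform only from 0.02 to 0.10. Between NT replicate 2 and 1 the longest and shortest quintiles differed by -0.01. In the longest quintile 96 genes (15.8%) were called shortened and 3 (0.493%) lengthened, in the shortest 12 and 12. The median aUTR was 1752 nt in the shortened genes, 322 nt in the lengthened genes and 556 nt in all. In 4sU the quintiles showed a larger fall, from -0.19 to -0.90. Of 176 shortened genes measured in 4sU, 158 (89.77%) had a RED below 0, compared with 71.98% of all genes. In the total RNA pairs numbered 1, 2 and 4, 64.81, 70.66 and 69.23% of the shortened genes were below 0, compared with 55.17, 54.14 and 56.4% of all.

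**Figure D4:**
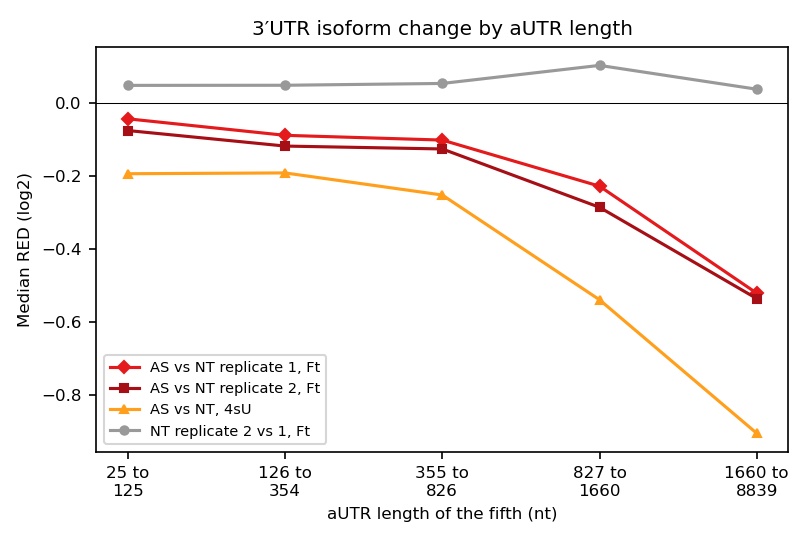
Median RED (log2) of the 609 genes in each quintile of aUTR length, with the range in nt under each point, for AS against each NT Ft library, AS against NT in 4sU, and NT replicate 2 against 1. Both AS lines in Ft fall to about -0.5 in the longest quintile, the line between the NT libraries stays near 0, and the 4sU line falls to -0.90.

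The clearest single gene was Arid5b, which encodes a DNA-binding cofactor of a histone demethylase. Its dPAS share was 91% and 93.4% in the NT libraries and 59.5% in AS, from 200, 212 and 200 reads. AS fell far below both, with a RED of -3.01. Fisher's exact test gave p = 1.4e-13 and 4.7e-17, and edgeR an adjusted p of 7.71e-06. The pPAS reads rose from 18 and 14 to 81 while the dPAS reads fell from 182 and 198 to 119. RED was -3.20 in 4sU, and -0.77 and -1.81 in the total RNA pairs with enough reads. The dPAS lies 3269 nt past the pPAS, beyond the end annotated in GENCODE. Mtss1l, Zdhhc20 and G2e3 changed in the same way. For Mtss1l the dPAS share was 78.7% and 76.8% in NT and 41.5% in AS, for Zdhhc20 82.1%, 76.8% and 45.5%, and for G2e3, an E3 ubiquitin ligase gene, 87.1%, 85.2% and 60.8%. In Acbd3, Osbpl3, Zc3hav1l and 2310008H09Rik, the dPAS share fell from 42.6 to 61.7% in NT to 17.9 to 19.6% in AS. In Osbpl3 and 2310008H09Rik, 2 of the total RNA pairs had a RED above 0. Zmat3 and Setd1b, which were named after their values had been seen, went from 73.1% and 77.7% to 46.4% and from 96.5% and 95.2% to 74.1%.

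The 30 nt that end at each PAS are shown for 3 shortened genes and 1 lengthened gene, since the polyadenylation signal in this window helps define how a site is recognized. Capitals mark AATAAA, the canonical signal, or its common variant ATTAAA, and the reference is mm9 read on the sense strand.
Arid5b pPAS (chr10:67558542-67558571, minus strand): tttaATTAAAcagcatcccttctgtttgta
Arid5b dPAS (chr10:67555273-67555302, minus strand): aatatttAATAAAaaatgttactatctgtt
Mtss1l pPAS (chr8:113263808-113263837, plus strand): tatgactgtAATAAAatggagctgacccta
Mtss1l dPAS (chr8:113265271-113265300, plus strand): ccagtattAATAAAgcagtactgtagttaa
G2e3 pPAS (chr12:52474333-52474362, plus strand): tagtctATTAAAagcaaggctttacaaata
G2e3 dPAS (chr12:52477941-52477970, plus strand): ttttgacattAATAAAatctattatgaaaa
Blzf1 pPAS (chr1:166222259-166222288, minus strand): tagaAATAAAatcaattcatcgtgatataa
Blzf1 dPAS (chr1:166221302-166221331, minus strand): aaatggcAATAAAggtccaatttctttgtg
In Arid5b and G2e3 the pPAS carries the variant and the dPAS the canonical signal, while in Mtss1l and Blzf1 both sites carry AATAAA. Over the 183 shortened genes, AATAAA was found within 40 nt of 42.6% of pPASs and 67.2% of dPASs, compared with 48.1% and 60.3% of all 3045 genes. In the aUTRs, TATTTAT occurred 0.262 times per kb in the shortened genes and 0.275 times in all, and TTTTT 6.69 and 6.83 times per kb.

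**Figure D5:**
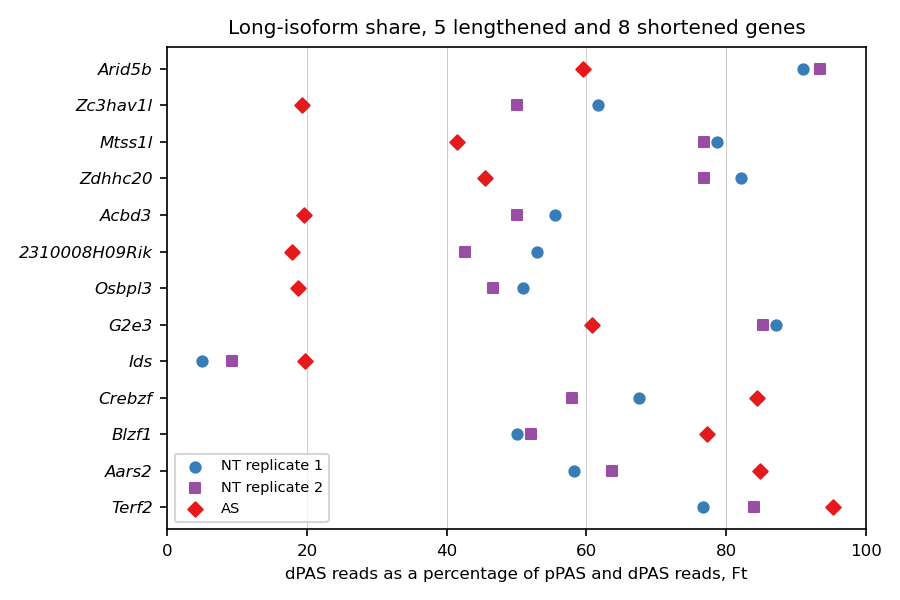
Share of dPAS reads among pPAS and dPAS reads (percent) in the 3 Ft libraries for the 8 shortened and 5 lengthened genes named by rule, one symbol per library. By the rule for a call, the AS value lies below both NT values in the 8 genes from Arid5b to G2e3, and above both in the 5 from Ids to Terf2.

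The lengthened genes had short aUTRs for the most part. Terf2, which encodes a telomere-binding protein, had a dPAS share of 76.7% and 83.9% in NT and 95.3% in AS, with an aUTR of 92 nt. Crebzf was at 67.5%, 57.9% and 84.4%, Blzf1 at 50%, 52.1% and 77.3%, Aars2 at 58.2%, 63.6% and 84.8%, and Ids at 4.93%, 9.24% and 19.8%. AS stood above both NT values in each, which the rule for a call requires. In 4sU, RED was 2.49 for Crebzf but -1.23 for Ids and -0.04 for Terf2. Over 40 lengthened genes measured in 4sU, 20 had a RED below 0.

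Of the genes that the study examined for their isoforms, Nmt1, an N-myristoyltransferase gene, was called shortened, with a dPAS share of 79.7% and 76% in NT and 66.2% in AS (Fisher's exact test, p = 0.001 and 0.019). Hspa4l (41.9%, 34.8% and 28%) and Rpl22 (72.8%, 74.3% and 70%) did not pass. Timp2 (85.6%, 87.2% and 85.8%) had an AS value between the NT values. Dnajb1 was called lengthened (73.6%, 75% and 81.8%), with a RED of 0.64 in Ft and -0.80 in 4sU, while its reads of both isoforms rose. Purb, Fam49b and Tmem248 had no pair of isoforms with enough reads or no match by name.

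Some genes were called at both the isoform and the gene level. Of the 183 shortened genes 12 (6.56%) were also called lower and 3 (Jun, Plk2 and Sc4mol) higher, compared with 53 (1.74%) lower and 38 (1.25%) higher of all 3045. The 12 were among the 53 lower genes whose isoforms could be tested, and the other lower genes had no tested pair. The median gene-level change of the shortened genes was -0.12, compared with -0.02 in all 3045 genes and 0.01 between the NT libraries in the shortened genes.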

How the data were processed

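Raw read counts at PAS positions were deposited without normalization. To make them, the authors trimmed the reads with Cutadapt, aligned them to mm9 using Bowtie2 and kept those with untemplated Ts. STAR is also listed in the submitters' processing notes. A position with fewer than 5 reads is not listed for a library. PASs of 18 libraries were joined when at most 24 nt apart. A 3′UTR PAS was any in a final exon of a protein-coding gene (GENCODE M1, mm9) or in the 4000 nt that follow, where 25.87% of 37570 3′UTR PASs lay. The 18 libraries include the NT and AS 3′READS libraries of total RNA, Ft and 4sU, and the Ft and 4sU libraries of 4 h of recovery. They also hold the NT libraries of the TIA1 immunoprecipitation and of its cytoplasmic input. The remaining libraries of the series were not used here.

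Reads were summed per gene and tested with edgeR 4.0.16 in R 4.3.3 (TMM, quasi-likelihood test, Benjamini-Hochberg adjustment). The main test took the 2 NT and 1 AS Ft libraries, with at least 30 reads in sum. The minimum was 60 in total RNA. Over the 8 fraction libraries it was 80 for 4sU and for the difference between fractions. For the change in Ft it was 30 there too, also with an NT library left out. DESeq2 1.42.0 was an alternative. Changes against single libraries used log2(RPM + 0.5). For isoforms, the pair of 3′UTR PASs with the most reads over the 8 Ft and 4sU libraries was taken, at most 10000 nt apart. In simulated counts for 8843 genes, where 200 had a known log2 change of 2 in either direction, edgeR recovered 92% of these and called 0.08% of the rest. The simulation gave AS the same spread as NT and changed only genes above a mean read level. Its change was larger than the median change of the called genes. The 0.08% is therefore not an error rate for these data.

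Total RNA libraries numbered 1, 2 and 4 in the labels pair NT with AS: deviations from the group means correlated by 0.87, 0.857 and 0.804. The labels do not say whether replicates are separate cultures, so p-values measure the spread between these libraries, which may be technical. The 2 NT Ft libraries also differ in harvest time, and AS matches only NT replicate 1 in it. The noise scale between them thus mixes harvest time with replicate spread. Intervals and exact tests on reads cover counting error only.

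Genes were named by rule: the 15 largest changes each way among called genes at 10 RPM or more with AS farther from both NT values than these from each other, up to 4 per list, the 8 lowest and 5 highest REDs with at least 50 reads of each isoform, and the genes the study examined. Junb, Klf6, Myc, Hsp90aa1, Gclm, Cdkn1a, Col1a1 and other genes outside this rule were chosen after their values were seen. Members and lists were chosen with earlier results of these data known. Mitochondrial genes were left out. Alternatives were other normalizations, read minimums, tools, bins, gene extents, isoform rules and left-out libraries. Results for some genes are not reported here.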

Additional observations from a re-analysis of the deposited data

How the results depend on the processing

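Gene counts depended on the test. Genes higher in AS Ft numbered 125, and 46 with DESeq2, 45 with no filter on reads and 47 in 1 fit of all 8 fraction libraries. Genes lower numbered 156, and 18, 20 and 27 under the same settings and 101 with an extension of 1000 nt. Without NT_Ft replicate 1 or 2 they ranged from 24 to 32 higher and from 3 to 10 lower, with the lone libraries assumed to vary like the other groups. Other settings raised them, to 135 higher and 229 lower with library totals, 158 and 229 with all PAS reads in the gene, and 152 and 182 at 100 or more reads. Of the 53 called genes named by rule none changed sign, and 22 lost their call in the fit of 8 libraries, 27 without NT_Ft replicate 1 and 34 without NT_Ft replicate 2. AS lay outside both NT values in every called gene, so their signs could hardly change under these settings. Of the 47 not called, 3 to 10 changed sign under a setting. The difference between fractions, 0 genes by edgeR, was 14 with DESeq2. In total RNA, the replicate block gave 11 genes higher, and no other setting there gave any. None of those other settings used the pairing of the libraries by number.

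Shortened genes numbered 183 and lengthened genes 43. These became 418 and 108 with NT reads summed in 1 test, 116 and 28 at over 10 percentage points, 72 and 14 with adjusted p values, and 3 and 0 by edgeR. Without an NT replicate they were 375 to 458 and 114 to 142. The median RED ranged from -0.22 to -0.16. The aUTR difference of -0.44 was -0.34 with 3 bins and -0.36 with more than 20 reads. The turnover difference of -0.04 ranged from -0.11 to 0.06 and stayed within the NT noise. The length difference of -0.38, with alternatives added after seeing the data, was -0.27 at 100 RPM or more, -0.21 by genomic span and -0.26 with 3 bins.

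The depth limits low genes: with positions under 5 reads unlisted, the AS values of genes such as Sema3a rest on a few reads.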
